A study of Mus musculus with 139 samples.

Results

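Liver was compared with 9 other organs of the same mice in a count table of small non-coding RNA genes. The liver group was every library of the table whose name gave liver, which was 13 of its 134 libraries. The comparison group was the 117 libraries of brain, heart, skeletal muscle, lung, kidney, pancreas, intestine, spleen and bone marrow (11 to 14 libraries each); 1 pancreas library and all testis libraries were left out by the rule of the comparison. All mice were wild-type (WT) C57BL/6J adults, 3 months old, with no treatment named in the labels, and RNA was taken from whole tissue, so each library mixes the cell types of its organ. Animals 1 to 10 were female and animals 11 to 14 male, per the names in the table. The liver libraries of animals 1 to 10 (n = 9; the liver sample of animal 3 was not analysed here) were sequenced in a library pool named N467, and those of animals 11 to 14 (n = 4) in a pool named N541. Sex, animal set and pool therefore cannot be told apart within liver.

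Hepatocytes, the parenchymal cells of the liver, make up most of its mass, and sit beside Kupffer cells (resident macrophages), sinusoidal endothelial cells, stellate cells, bile duct cells and blood. A microRNA (miRNA) is a short RNA that guides Argonaute proteins to messenger RNAs, mainly by pairing through its seed, the bases 2 to 8 from its 5′ end. miR-122 is the best known hepatocyte miRNA, with roles in cholesterol and lipid metabolism, and miR-192 and miR-194 are shared by liver, gut and kidney. Small nucleolar RNAs (snoRNAs) guide modification or processing of ribosomal RNA, and Cajal body RNAs (scaRNAs) guide modification of spliceosomal RNA.

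Several liver results below turn on miRNAs that share a seed, so the mature sequences of those members are shown first, from RefSeq (GRCm38.p6), 5′ to 3′, with the seed in capitals. The table counts a whole miRNA gene and does not separate its 2 arms, so each sequence identifies the arm that carries the shared seed and not the arm that was counted. The first pair had the same seed, AGGAGCU, and the first was higher and the second lower in liver.
mmu-miR-28a-5p: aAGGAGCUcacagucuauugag
mmu-miR-708-5p: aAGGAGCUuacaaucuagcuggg
Counted from the 5′ end, the pair differed by C9U, G13A, U18G, U19C, G20U and A21G. The next 3 share the seed CAGUGCA and were all higher in liver.
mmu-miR-148a-3p: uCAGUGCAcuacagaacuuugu
mmu-miR-148b-3p: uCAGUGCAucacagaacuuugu
mmu-miR-152-3p: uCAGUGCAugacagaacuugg
The next pair shares UGACCUA, and the first of them was higher in liver.
mmu-miR-192-5p: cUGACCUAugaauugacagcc
mmu-miR-215-5p: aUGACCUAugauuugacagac
The Mir21 pair shares AGCUUAU, and both genes stood above each organ in liver.
mmu-miR-21a-5p: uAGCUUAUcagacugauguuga
mmu-miR-21c: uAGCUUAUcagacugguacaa
The 3 Mir101 entries start at different bases, so their seeds read differently although the sequences are close.
mmu-miR-101a-3p: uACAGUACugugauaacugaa
mmu-miR-101b-3p: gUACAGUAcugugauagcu
mmu-miR-101c: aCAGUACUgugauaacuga
With miR-101b-3p moved by 1 base, 17 of 18 bases matched miR-101a-3p, and all 19 bases of miR-101c matched miR-101a-3p from its base 2. Counts of such near-copies (Mir101a and Mir101c, Mir21a and Mir21c) are uncertain, since reads could have been shared between them.

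Total counts of the liver libraries ran from 78905 to 13406435 (median 990388), and pancreas was the shallowest organ (median 134227). The deepest liver library, Liver 4, had the lowest TMM scaling factor of the liver libraries, 0.406, followed by Liver 6 at 0.515. It also had the highest scaled level of several miRNAs named below. Over all libraries of the fit the factors ran from 0.199 to 9.53, and all scaled levels depend on them. The shallowest, Liver 5, was the only liver library under 100000 counts. Levels are given as CPM, counts scaled to a common library total with TMM factors, and differences as log2 values from edgeR's quasi-likelihood test with pool as a term, with the standard error (SE) and a Benjamini-Hochberg adjusted p over 1063 genes. For the organs with libraries in pool N469, pool and organ are separated only through the libraries of pool N541, which they share with liver. A gene was called at an adjusted p under 0.05 and a log2 difference of at least 1. The difference of liver is from the mean of the 9 organs on the log scale, so an organ with a very high level can raise the linear mean of the others without changing the sign. The median difference over all genes tested was -0.52.

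Liver was higher than the other organs for 131 genes (12.3% of the genes tested) and lower for 246 (23.1%). The higher genes were led by hepatocyte miRNAs, and the lower ones held striated muscle, neuronal and lymphoid miRNAs and 87 of the 275 cytosolic tRNA genes. By class, 90 of 476 miRNA genes were higher and 114 lower, while 23 of 219 snoRNA genes were higher and 24 lower. The split between higher and lower calls moved with the scaling: 34.7% of calls were higher with TMM, 19.5% with DESeq2 size factors, 21% with unscaled library totals, 26% with TMM factors from miRNA genes, and 16.7% with DESeq2's Wald test. The median over all genes was -0.93, -0.78, -0.67 and -0.58 in those 4 settings. A stricter test asked for a level above each of the 9 organs by a log2 difference of at least 1. It called 12 genes (1.13%), and its mirror image called 6 genes below each organ (0.564%).

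Mir122 had the largest difference of all. In liver its lowest, median and highest levels were 13705, 28440.2 and 89578 CPM, while no other library exceeded 58.8 CPM, so every liver library lay above every library of the other organs. The mean was 41535 ± 27089 CPM in liver (SD, n = 13) and 8.23 ± 10.7 CPM in pancreas (n = 11), the next organ. Its log2 difference was 13.06 ± 0.67 (SE; edgeR adjusted p = 3.09e-38), and the smallest difference from any organ was 11.81, from pancreas. Mir122 lies on chromosome 18 (65248861 to 65248926, GRCm38, plus strand), in an exon of a long non-coding RNA.

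Mir1948, an intronic miRNA of Ttc39c (chromosome 18, 12714811 to 12714895), had lowest, median and highest liver levels of 23.1, 71.7 and 213 CPM. Its level in the other organs never passed 3.62 CPM, so here too no libraries overlapped. The log2 difference was 7.22 ± 0.34 (edgeR adjusted p = 5.17e-40). All 11 pancreas libraries were at 0 for Mir1948, so the fitted difference from pancreas depends on the prior count; the smallest difference, 5.67, was from kidney.

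Mir101b, which lies in an intron of Rcl1 (chromosome 19, 29135279 to 29135375), had lowest, median and highest liver levels of 3615, 7704 and 50179 CPM. The highest level in any other library was 2679 CPM, in pancreas, again with no overlap. Its log2 difference was 4.38 ± 0.24 (edgeR adjusted p = 4.21e-35). The other genes of the family differed less: Mir101a was higher by 1.17 ± 0.24 (edgeR adjusted p = 3.35e-05), with a mean of 5071 CPM in liver and 6871 CPM in kidney. Its call was lost with DESeq2 size factors (log2 difference 0.82), within pool N467 (0.72) and without Liver 4 (0.87). Mir101c was higher by 1.87 ± 0.41 (adjusted p = 6.82e-05) at a liver mean of only 2.46 CPM.

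**Figure D1:**
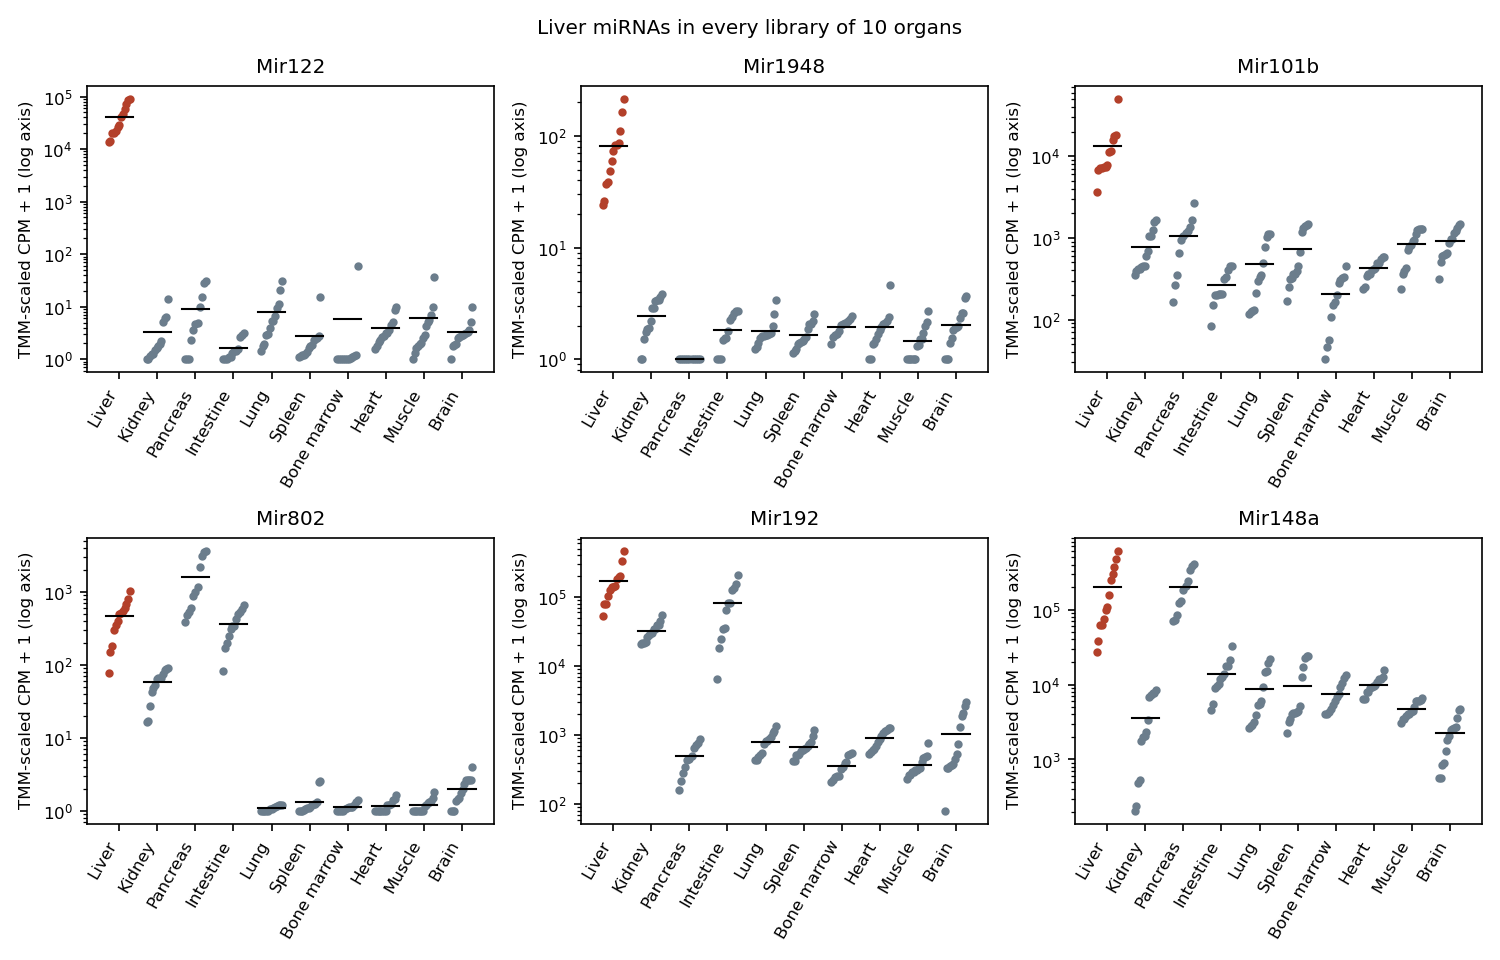
Each point is 1 library and each black bar the mean of an organ, with TMM-scaled CPM + 1 on a log axis, for 6 miRNAs in liver (red) and 9 other organs (grey). Every liver point of Mir122, Mir1948 and Mir101b lies above all grey points, whereas Mir802 and Mir148a are as high or higher in pancreas and Mir192 overlaps with intestine.

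The list of hepatocyte miRNAs held 7 measured genes, and all 7 were higher in liver, with a median difference of 5.67 against -0.52 over all genes. Mir122 was the only member that passed the test against each organ.

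Mir192 had lowest, median and highest liver levels of 53908, 139510 and 472308 CPM. The highest intestine library reached 211785 CPM, so intestine overlapped with liver, while the highest kidney library, 55782 CPM, passed only the lowest liver library. Mir192 was higher in liver by 6.78 ± 0.27 (edgeR adjusted p = 3.51e-48), but its difference from intestine was 1.13 ± 0.39 and did not pass the test against each organ (adjusted p = 0.17). Mir194-2, its neighbour on chromosome 19, was higher by 5.67 ± 0.30 (adjusted p = 3.3e-37), with a liver median of 1372 CPM and an intestine median of 2979 CPM. Mir194-1, the copy beside Mir215 on chromosome 1, was higher by 5.09 ± 0.25 (adjusted p = 5.28e-39), although its median was 773 CPM in liver and 43709.8 CPM in intestine. Both Mir194 genes give the same mature miR-194-5p, so reads could have been split between them. Mir215 itself, which shares the seed of miR-192-5p, missed the call (log2 difference 0.92 ± 0.44, adjusted p = 0.0851), with a median of 22.9 CPM in liver and 87277.5 CPM in intestine. Within pool N467 Mir215 was called higher as well (4.37), in a comparison without intestine. Both mature forms with this seed have 21 bases. Between Mir192 and Mir215, nearly all liver counts were in Mir192, while in intestine both genes were at a high level.

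Mir148a, a miRNA abundant in hepatocytes and in pancreatic acinar cells, had lowest, median and highest liver levels of 26883, 109901 and 616853 CPM. Pancreas covered much of the same range, from 71597 to 411619 CPM, and the means were 203905 CPM in liver and 203714 CPM in pancreas. The highest library of any other organ had 32252 CPM, which 12 of the 13 liver libraries passed. The difference from the 9 organs was 3.54 ± 0.26 (edgeR adjusted p = 1.64e-24) and that from pancreas was -0.19 ± 0.35. The 2 other genes with this seed were higher too, Mir152 by 1.61 ± 0.21 (adjusted p = 2.87e-11) and Mir148b by 1.497 ± 0.333 (adjusted p = 9.63e-05). Within pool N467 the Mir152 difference was 0.71 and was not called, and with unscaled totals that of Mir148b was 0.85 and was not called.

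Mir802, which is described in hepatocyte and beta cell glucose metabolism, had lowest, median and highest liver levels of 77.1, 496 and 1029 CPM. It was at or under 2.95 CPM in every library of brain, heart, muscle, lung, spleen and bone marrow, reached 672 CPM in intestine, and was highest in pancreas (387 to 3704 CPM). Mir802 was higher in liver by 7.58 ± 0.38 (adjusted p = 1.11e-38), with a difference from pancreas of -1.94 ± 0.45. Mir22, encoded by its own host transcript, was higher by 2.08 ± 0.24 (adjusted p = 2.2e-13), while muscle (mean 60413 CPM) and heart were above liver (15847 CPM).

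Since Mir148a and Mir802 were also high in pancreas, the acinar and islet miRNAs were read in the same liver libraries. Of 7 acinar and islet miRNAs tested, 4 were lower, against 23.1% of all genes, and 3 not called. Mir217 and Mir216b, which define acinar cells, were at 0 in all 13 liver libraries. The means over the 9 organs were at least 4518-fold and 1431-fold higher, against a floor of 3 counts over the pooled liver counts, while the organ with the least was below that floor for both genes. The call of Mir216b was lost with the animal as a block (edgeR adjusted p = 0.078), without the pool term (adjusted p = 0.11), with DESeq2's Wald test (log2 difference -0.55) and without any 1 of the 13 liver libraries, and that of Mir217 with only libraries of at least 100000 counts (edgeR adjusted p = 0.0595). Mir216a had 2 counts in all liver libraries together. Mir375, the islet miRNA, was lower, with a log2 difference of -2.68 ± 0.42 (edgeR adjusted p = 4.66e-08), at a liver median of 4.74 CPM.

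Among the remaining genes above each organ were 2 scaRNAs and 2 snoRNAs. Scarna17, a Cajal body RNA on chromosome 18 (74778391 to 74778469), had lowest, median and highest liver levels of 1896, 14969 and 75917 CPM. Single libraries of muscle reached 15585 CPM, so the groups overlapped, but the mean of muscle was 3213 CPM against 21077 CPM in liver. Its difference was 3.78 ± 0.40 (edgeR adjusted p = 3.48e-15) with a smallest difference of 2.83. Gm25443, an annotated scaRNA gene on chromosome 19, had a liver median of 151 CPM and a difference of 3.25 ± 0.26 (adjusted p = 3.56e-22). Gm25395 was higher by 1.71 ± 0.27 (adjusted p = 8.1e-08). In all, 4 of the 13 scaRNAs tested were higher and 2 lower, against 12.3% and 23.1% of all genes.

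Snord104, on chromosome 11 (106500993 to 106501062), had lowest, median and highest liver levels of 2144, 4032 and 5214 CPM. The highest spleen library lay just under this range, at 2143 CPM, and Snord104 was the fourth gene of which every liver library exceeded every other library, after Mir122, Mir1948 and Mir101b (4 genes, 0.376%; no gene lay below in every library). Its difference was 2.33 ± 0.20 (adjusted p = 7.24e-20), and its smallest difference, 1.26, fell to 0.97 with DESeq2 size factors and 0.40 with unscaled totals, which ended the call. Snord118, the U8 RNA needed for processing of large-subunit ribosomal RNA, had levels of 644, 1123 and 1919 CPM. Its difference was 2.63 ± 0.20 (adjusted p = 3.87e-23), with a smallest difference of 1.44 from spleen, where the highest library had 643 CPM. With unscaled totals the smallest difference of Snord118 was 0.51, which ended its place above each organ. Pancreas reached 762 CPM and overlapped with the lowest liver library.

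Mir21a, a miRNA of an exon of Vmp1 with broad expression and known for its rise in injured tissue, had lowest, median and highest liver levels of 23678, 42191 and 318757 CPM. The highest value was that of Liver 4, and the next was 61542 CPM. Spleen reached 55442 CPM and overlapped with all but 3 liver libraries. The difference was 3.05 ± 0.27 (adjusted p = 2.18e-19), and its smallest difference of 1.31, from spleen, fell to 0.73 without Liver 4, to 0.97 with DESeq2 size factors and to 0.18 with unscaled totals. Mir21c followed Mir21a at a mean of 9.15 CPM (difference 3.32 ± 0.42, adjusted p = 1.58e-11; smallest difference 1.47, and 0.55 without Liver 4), and its place above each organ was also lost without Liver 8, 9, 10, 11 or 12. Mir7219 had levels of 0, 4.06 and 12.6 CPM, with 4 liver libraries at 0, and a difference of 4.11 ± 0.39 (adjusted p = 4.04e-17). Its place above each organ was lost with DESeq2 size factors (adjusted p = 0.125), unscaled totals (0.463) and DESeq2's Wald test (0.515).

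Mir130a, a miRNA described in endothelial cells, had lowest, median and highest liver levels of 462, 1743 and 3296 CPM. Kidney, the next organ, reached 1680.1 CPM. Mir130a was higher in liver by 2.78 ± 0.23 (adjusted p = 2.1e-21), with a smallest difference of 1.18, or 0.996 without Liver 4 and 0.85 without Liver 7. Its seed AGUGCAA is shared by Mir130b, which was lower in liver (log2 difference -1.95 ± 0.32, adjusted p = 2.12e-07), and by Mir301, which was not called (-0.80 ± 0.27, adjusted p = 0.0123).

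The seed pair of Mir28a and Mir708 split more widely. Mir28a, in an intron of Lpp on chromosome 16 (24827855 to 24827940), had lowest, median and highest liver levels of 117, 256 and 1295 CPM. The highest was again Liver 4 and the next highest in that animal set was 426 CPM; the other organs reached 306 CPM, so 7 of the 13 liver libraries overlapped with them. Mir28a was higher by 1.88 ± 0.23 (edgeR adjusted p = 2.24e-12). Its smallest difference, 1.03 from kidney, lay just over the limit, and was 0.48 without Liver 4 and 0.45 with DESeq2 size factors. The place of Mir28a above each organ was also lost without Liver 2 (0.93) or Liver 5 (0.975). The same held with the animal as a block (0.985) and with no filter on low counts (edgeR adjusted p = 0.175).

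Mir708, in an intron of Tenm4 on chromosome 7 (96249424 to 96249532), was at 0 in 9 of the 13 liver libraries and reached 1.14 CPM in the highest. The other organs averaged between 3.73 ± 1.75 CPM in heart (n = 13) and 505 ± 368 CPM in brain (n = 14), and apart from 3 pancreas libraries at 0 every one of their libraries lay above the highest liver library. Mir708 was lower in liver, with a log2 difference of -6.65 ± 0.58 (edgeR adjusted p = 1.13e-19), and its smallest difference, -4.24, was from heart. The mature forms with the seed AGGAGCU have 22 and 23 bases. Between these genes, nearly all liver counts were in Mir28a, at a mean of 354 CPM against 0.161 CPM for Mir708. The arms of a gene were counted together, so the level of the seed itself was not measured. In brain the order was the other way round, with a mean of 55.0 CPM for Mir28a and 505 CPM for Mir708.

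**Figure D2:**
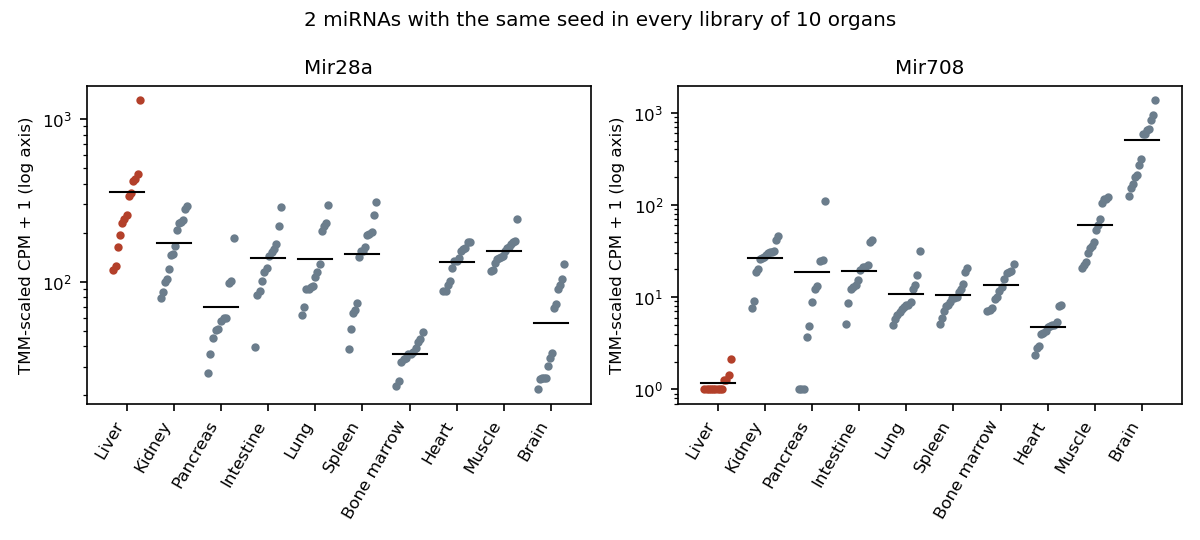
Each point is 1 library and each bar the mean of an organ, with TMM-scaled CPM + 1 on a log axis, for 2 miRNAs of the same seed in liver (red) and 9 other organs (grey). Liver has the highest mean of Mir28a (354 CPM), raised by 1 library at 1295 CPM, and the lowest mean of Mir708 (0.161 CPM).

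The other genes below each organ in liver were Mir133a-1, Mir133a-2, Mir218-1, Mir218-2 and Mir181b-2. The Mir133a genes encode a striated muscle miRNA with the same mature sequence, and had liver medians of 0.812 and 0.571 CPM against means above 100000 CPM in muscle. Their smallest differences were -2.67 for Mir133a-1 and -2.53 for Mir133a-2; that of Mir133a-1 lost its call with unscaled totals (adjusted p = 0.0624). The Mir218 genes, in introns of Slit2 and Slit3, had liver means of 1.18 CPM (Mir218-1) and 0.729 CPM (Mir218-2), and the smallest differences were -1.54 and -1.85. The place of Mir218-1 below each organ was lost within pool N467 (-1.03, edgeR adjusted p = 0.139), with unscaled totals (-1.79, adjusted p = 0.0916), with no filter on low counts (adjusted p = 0.206) and without Liver 9, 11 or 14 (-1.38, -1.33 and -1.33). Mir181b-2, a miRNA of lymphoid cells and neurons, had lowest, median and highest liver levels of 11.4, 33.0 and 57.0 CPM, with a difference of -2.85 ± 0.26 (adjusted p = 1.24e-18); its place below each organ was lost with the animal as a block (smallest difference -1.16).

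**Figure D3:**
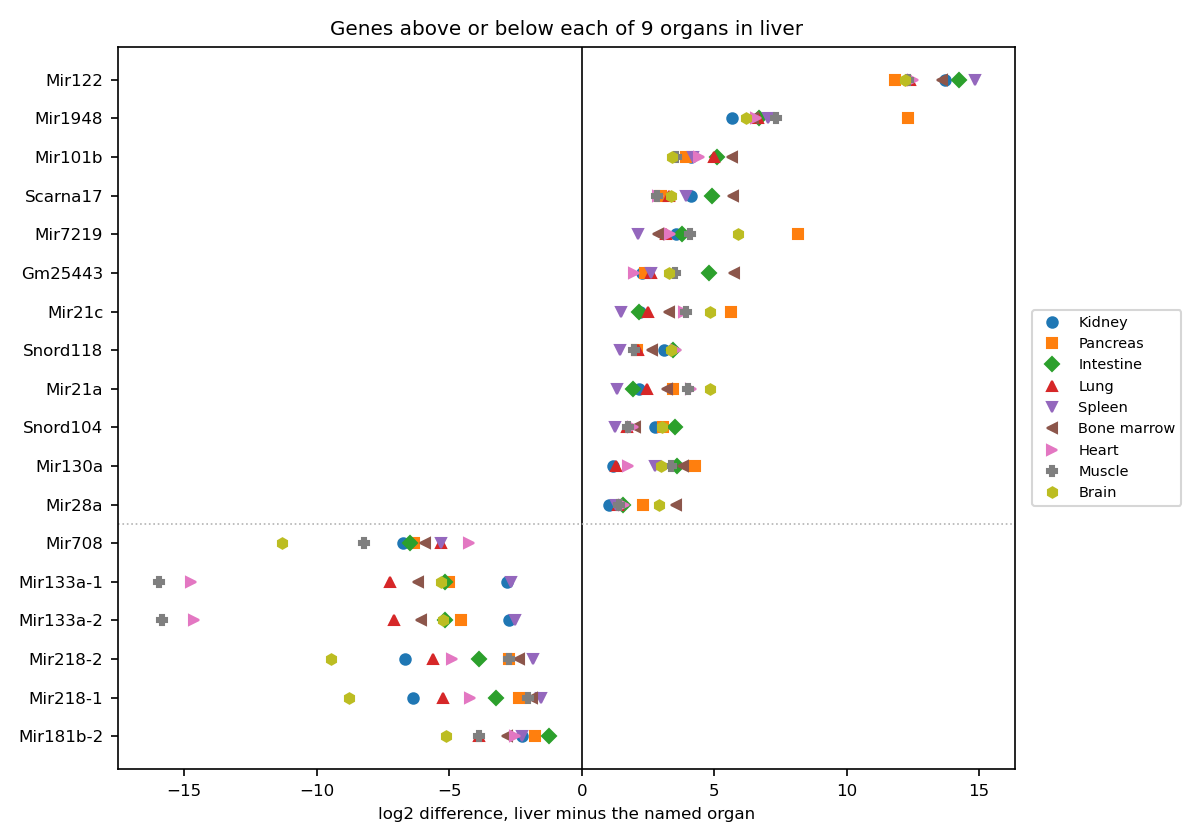
Each symbol is the fitted log2 difference of liver from 1 organ, for the 12 genes above each organ and, under the dotted line, the 6 genes below each organ. Mir122 lies furthest to the right, with its smallest difference at 11.81, and Mir708 lies at -4.24 or lower for all 9 organs; Mir1948 and Mir7219 have an isolated pancreas symbol because no pancreas library had a count of either and the fitted value there depends on the prior count.

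Of 11 miRNAs described in lipid or glucose metabolism, 6 were called higher in liver and none lower, against 12.3% and 23.1% of all genes. The median was 1.11, with single genes from -3.26 to 3.48. Mir370 was at 0 in all liver libraries and was not called. Its mean over the 9 organs, 5.07 CPM from pooled counts, was at least 58.6-fold higher, against a floor of 3 counts over the pooled liver counts. The organ with the least Mir370 was at 0 too. Mir107, in an intron of the pantothenate kinase gene Pank1, had lowest, median and highest liver levels of 292, 807 and 2058 CPM, and was higher by 3.48 ± 0.19 (edgeR adjusted p = 5.84e-35). Kidney, the nearest organ, reached 882 CPM, and the smallest difference was 0.96, just under the limit for a gene above each organ. Mir33, in an intron of Srebf2, the gene of a master regulator of cholesterol synthesis, was higher by 2.04 ± 0.29 (adjusted p = 1.83e-09) at a median of 21.8 CPM, with spleen at a like level (difference 0.12). Mir378a was higher by 1.38 ± 0.19 (adjusted p = 1.02e-09) and Mir335 by 1.18 ± 0.25 (adjusted p = 3.73e-05); with DESeq2 size factors they were at 0.93 and 0.78 and were not called. Mir203, which is best known from stratified epithelium, was higher by 3.15 ± 0.22 (adjusted p = 8.93e-26), with a median of 966 CPM in liver and 856 CPM in intestine.

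Markers of other cell types were counted in the same fit, in which 12.3% of all genes were higher and 23.1% lower. In whole tissue, fewer cells of a type and less RNA per cell cannot be told apart. Of 5 myeloid and Kupffer cell miRNAs, 1 was higher, 1 lower and 3 were not called. The higher one was Mir511, in an intron of the macrophage mannose receptor gene Mrc1, with lowest, median and highest liver levels of 0, 25.6 and 56.1 CPM and a difference of 2.70 ± 0.26 (edgeR adjusted p = 1.76e-17). Spleen, at 18.3 CPM, was nearest (difference 0.53). Mir146b was lower, at -1.81 ± 0.46 (adjusted p = 0.000601). The summed level of the list, in unscaled CPM, was 749 to 6560 in liver and 271 to 69921 in the other organs.

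All 8 lymphoid miRNAs were lower, with a median of -2.45; Mir150, the miRNA of mature lymphocytes, was at -2.90 ± 0.37 (edgeR adjusted p = 2.82e-11) with a liver median of 28.8 CPM. Of those 8, 6 are Mir181 genes that share the seed ACAUUCA. The 3 erythroid and 4 stromal miRNAs were not called. The erythroid miRNA Mir451a gave 0.31 ± 0.34, and its sign turned without the pool term (-0.41) and within pool N467 (-0.99), whereas in pool N541 against the 9 organs Mir451a was called higher (1.29, edgeR adjusted p = 0.00531). Mir126a, the endothelial miRNA, was higher by 1.64 ± 0.27 (adjusted p = 1.76e-07), with a liver median of 6587 CPM and a lung mean of 19353 CPM.

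Among 7 epithelial and bile duct miRNAs, 2 were lower and 1, Mir203, was higher, near the shares of all genes (23.1% and 12.3%). Mir200c was at -3.31 ± 0.55 (edgeR adjusted p = 2.89e-07), with a liver median of 3.31 CPM, and Mir141 at -1.75 ± 0.49 (adjusted p = 0.00201). Within pool N467, where 17.4% of all genes were lower, 6 of the 7 were lower. Of 9 striated muscle miRNAs tested, 8 were lower, and within pool N467, in a comparison without muscle and heart, 4 of 6. Mir133b and Mir206 were at 0 in all liver libraries, and their means over the 9 organs were at least 1142-fold and 474-fold higher, although the organ with the least had only 0.122 and 0.0200 CPM. Mir208a, a heart miRNA, was at 0 in liver too and was the member that was not called (edgeR adjusted p = 1).

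Of 15 neuronal miRNAs, 10 were lower and 1 was higher, against 23.1% and 12.3% of all genes. Within pool N467, in a comparison without brain, 5 of 12 were lower and 1 higher, against 17.4% and 17.1% there. The higher member was Mir137, a neuronal miRNA, with lowest, median and highest liver levels of 0, 12.2 and 46.3 CPM. Outside brain (13.4 to 989 CPM) and intestine (3.12 to 15.6 CPM) no library passed 3.30 CPM. Its difference was 4.72 ± 0.42 (edgeR adjusted p = 3.92e-19), and it was called in both pools (6.63 and 7.79). The other neuronal miRNAs did not follow it: Mir138-2 was at -5.34 ± 0.66 (adjusted p = 7.08e-12) with 11 of 13 liver libraries at 0, and the summed neuronal list stood at 11.5 to 165 unscaled CPM in liver. Of the imprinted Dlk1-Dio3 cluster, 33 of 46 tested miRNAs were lower and none higher, with a median of -2.08. Within pool N467, without brain, 5 of the 23 tested were lower, against 17.4% of all genes there.

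Of the Hox-encoded miRNAs, Mir10a was higher by 1.59 ± 0.32 (edgeR adjusted p = 1.54e-05) and Mir10b lower at -2.79 ± 0.51 (adjusted p = 1.8e-06). These share the seed ACCCUGU and differ by U12A. Median levels in liver were 110890 CPM for Mir10a and 2634 CPM for Mir10b. Within pool N467 the Mir10a difference was 0.44 and was not called. Mir196b was at 0 in all liver libraries. Of 12 let-7 genes 4 were higher and none lower, against 12.3% and 23.1% of all genes. Mirlet7g, with the largest difference (1.16 ± 0.20, edgeR adjusted p = 6.26e-07), was at 0.75 with DESeq2 size factors and was not called. All 4 let-7 calls were lost without Liver 4 (0.84 for Mirlet7g, 0.77 for Mirlet7a-2, 0.77 for Mirlet7a-1 and 0.68 for Mirlet7f-2), without the pool term and with each other scaling tried. Both Y RNAs were lower, Rny1 at -2.05 ± 0.26 (adjusted p = 1.63e-11) and Rny3 at -1.51 ± 0.30 (adjusted p = 1.3e-05).

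Further miRNAs among the largest differences were at low levels and shared with kidney. Mir3105, in an intron of Shank2, had lowest, median and highest liver levels of 0, 10.1 and 35.3 CPM against a kidney mean of 9.23 CPM, and was higher by 5.82 ± 0.38 (edgeR adjusted p = 2.02e-23). Mir3073b, which overlaps Mir3073a on the opposite strand, had 0, 4.74 and 20.4 CPM against a kidney mean of 14.0 CPM (6.53 ± 0.39, adjusted p = 3.42e-28). Both were at or near 0 in heart, muscle, spleen and bone marrow. Mir30a, a miRNA of many epithelia, had 13778, 105449 and 222692 CPM in liver and was higher by 1.99 ± 0.28 (adjusted p = 1.49e-09), while kidney (mean 138641 CPM) and lung were at like levels.

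Of 22 mitochondrial tRNAs, 3 were higher and 3 lower, against 12.3% and 23.1% of all genes. Within pool N467, 9 were higher and none lower, against 17.1% and 17.4% there. Of the 3 higher, mt-Tp (1.55 ± 0.57, edgeR adjusted p = 0.0219) was no longer called with the animal as a block (0.64, adjusted p = 0.375), with DESeq2 size factors (1.09, adjusted p = 0.151) or without Liver 8 (1.26), 9 (1.15) or 10 (0.83). The tyrosine tRNA mt-Ty had lowest, median and highest liver levels of 22.1, 2566 and 43129 CPM and was higher by 2.85 ± 0.56 (edgeR adjusted p = 1.26e-05). Its libraries spread so widely that liver overlapped with every organ. The histidine tRNA mt-Th was lower (-1.52 ± 0.37, adjusted p = 0.000388), but not within pool N467 (-0.46) or without the pool term (-0.54).

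A few genes made up most of each liver library. The 10 genes with the largest mean share held between 55.9% and 83.6% of the counts of a library. These shares are per gene and not per length. Mir148a held 15.3% ± 12.6 (SD, n = 13; lowest 3.07%, highest 38.2%), Mir192 12.9% ± 4.16, Mir30a 10.2% ± 6.92 and Mir10a 8.63% ± 3.14. The order differed between the animal sets: in animals 11 to 14 Mir30a held 17.5% and Mir148a 4.02%, and in animals 1 to 10 Mir30a held 6.93% and Mir148a 20.3%. Gm26202, a snoRNA gene in an intron of the ribosomal protein gene Rpl17, held 8.62% ± 8.37, from 0.837% in Liver 4 to 27.1% in Liver 6. Mir21a held 4.43% ± 2.91 and Mir122 3.48% ± 2.35. The last of the 10 were Mir143, Mir486 and Mir3107; Mir486 and Mir3107 overlap on opposite strands and cannot be told apart if strand was not used in counting. Neither the share of Mir143 nor that of Mir486 went with a call in liver.

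**Figure D4:**
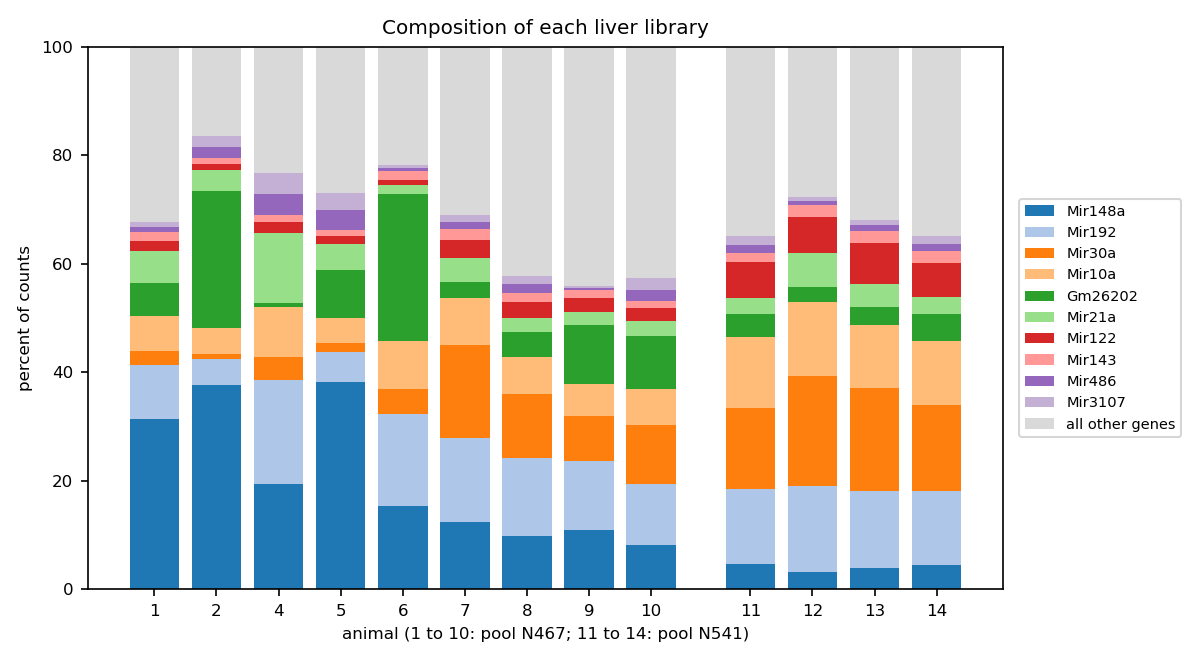
Each bar is 1 liver library, split by the percent of its counts in the 10 genes with the largest mean share and in all other genes, for animals 1 to 10 (left) and 11 to 14 (right). Mir148a takes 8.13% to 38.2% in animals 1 to 10 and 3.07% to 4.69% in animals 11 to 14, and Mir122 takes 1.03% to 3.20% and 6.34% to 7.52%.

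The share of each RNA class was compared between the liver and the other organs of the same animal, by an exact two-sided sign-flip permutation test over 13 animals (smallest p 0.000244), adjusted over 7 classes. Cytosolic tRNA genes held 4.15% ± 3.18 in liver and 12.9% ± 5.13 in the other organs, and were lower in 12 of 13 animals (exact adjusted p = 0.00114). The scaRNAs held 1.67% ± 1.19 against 0.254% ± 0.0585 and were higher in 12 of 13 animals (exact adjusted p = 0.00114). The class of miscellaneous RNA, which holds the Y RNAs, held 0.0341% against 0.175% and was lower in all 13 animals (exact adjusted p = 0.00114). Spliceosomal snRNAs held 0.0300% against 0.0652% (lower in 11 of 13 animals, exact adjusted p = 0.00256). The shares of miRNA (79.1% ± 9.85 against 74.9% ± 4.77, exact adjusted p = 0.229), snoRNA (11.8% against 8.23%, exact adjusted p = 0.321) and mitochondrial tRNA (3.20% against 3.52%, exact adjusted p = 0.759) did not pass. Within pool N467 (9 animals, 4 organs, smallest exact p 0.00391) the differences of tRNA, scaRNA and miscellaneous RNA passed as well, that of snRNA did not (-0.0159 percentage points), and those of miRNA and mitochondrial tRNA changed sign (-2.72 and 1.19 points). In animals 11 to 14 no class could pass, since the smallest exact p is 0.125; the snoRNA difference there was -8.74 percentage points (7.33% in liver against 16.1%), the opposite sign to that over all animals.

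The liver was then compared with lung, kidney, pancreas and spleen alone, which were sequenced in the same pools. In N467 (animals 1 to 10), 155 of 906 genes were higher in liver (17.1%) and 158 lower (17.4%), and 27 were above each of the 4 organs (2.98%). In N541 (animals 11 to 14), 76 of 645 genes were higher (11.8%), 87 lower (13.5%), and 12 above each organ (1.86%). These pools share no library and no animal. Over the 645 genes tested in both, 56 were higher in both, which is 48.7% of those higher in N467 and 73.7% of those higher in N541. For lower genes the overlap was 48, or 40% and 55.2%. Scarna2 was the only gene called in opposite directions (1.12 ± 0.32 in N467, edgeR adjusted p = 0.00463, and -3.23 ± 0.74 in N541, adjusted p = 0.00212); it was picked out after its values were seen.

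Several miRNAs named above were called higher in both pools, of which Mir1948 and Mir101b are not on the hepatocyte list. Mir122 was at 13.31 in N467 and 13.45 in N541, Mir1948 at 7.87 and 8.70, Mir192 at 6.74 and 6.57, Mir802 at 6.14 and 5.92, Mir101b at 4.49 and 4.47, and Mir148a at 4.11 and 2.95 (all edgeR log2 differences from the mean of the 4 organs, all called). Mir122, Mir192, Mir194-1, Mir194-2, Mir101b, Mir21a, Mir22, Mir31, Mir203, Snord118 and Snord104 were above each of the 4 organs in both pools.

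Other genes were above each of the 4 organs in N467 and not in N541. Mir1948, Gm25443, Mir130a, Mir28a and Mir21c were among them, with smallest differences in N541 of 6.32, 1.62, 0.58, 0.69 and 0.64. The only pancreas libraries in N541 were those of animals 12 and 13, with 66250 and 13795 counts. In these, 3 counts equal 45.3 and 217 CPM before TMM scaling. A gene that did not pass in N541 is therefore not shown to differ between the pools. Scarna17 stood above each organ in N467, with a smallest difference of 3.59, but not in N541 (-0.23), where its difference from the mean of the organs was still called (2.502). Gm26202 had a smallest difference of 1.87 in N467 and -2.07 in N541, and Mir107 1.37 and -0.06. Snord66 had 3.49 and -0.76. The change of the liver difference between the animal sets was tested against the mean of the 4 organs as an interaction. It did not pass for Scarna17 (-1.09 ± 0.84, edgeR adjusted p = 0.933), Gm26202 (-1.86 ± 0.93, adjusted p = 0.637), Snord66 (-1.75 ± 0.70, adjusted p = 0.386) or Mir107 (-0.17 ± 0.43, adjusted p = 1).

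**Figure D5:**
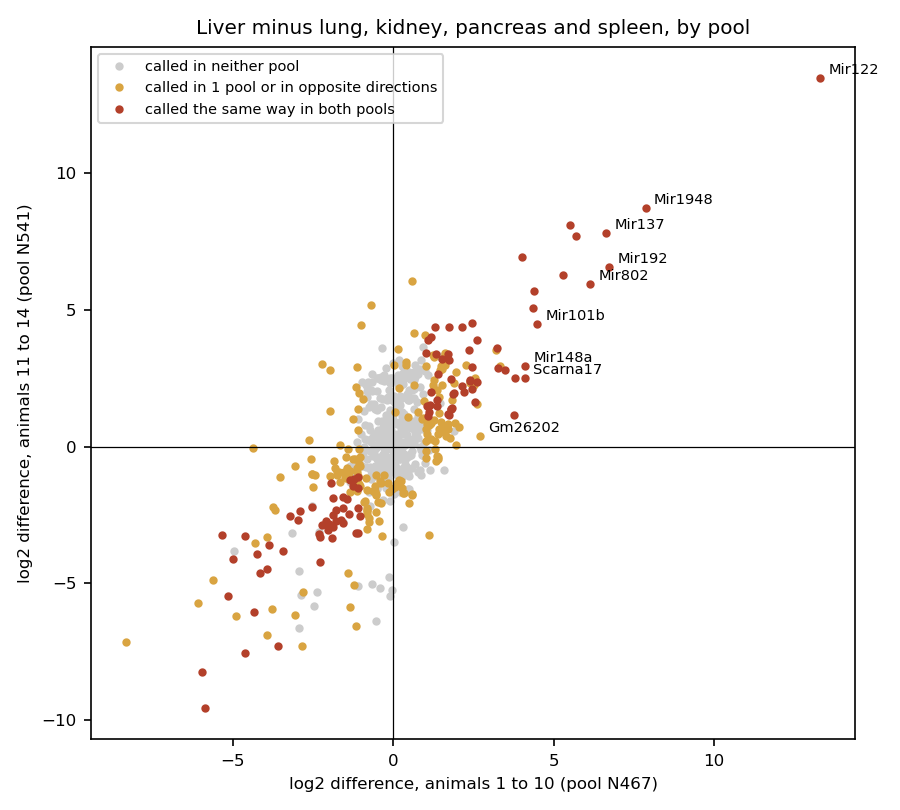
Each point is 1 of the 645 genes tested in both pools, with its log2 difference of liver from the mean of lung, kidney, pancreas and spleen in animals 1 to 10 (horizontal) and animals 11 to 14 (vertical). Mir122 lies at 13.31 and 13.45, and 56 genes are called higher and 48 lower in both pools (red).

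Within liver, 51 genes were higher in animals 11 to 14 than in animals 1 to 10 (4.8% of 1063) and 120 were lower (11.3%), and 62 genes (5.83%) had no overlap between the sets of 9 and 4 libraries. Higher genes were mainly miRNAs (42, of which 7 were let-7 genes), and the lower genes included 52 of 275 tRNAs, 29 of 219 snoRNAs and 16 of 22 mitochondrial tRNAs. Leaving out 1 liver library gave 27 higher genes (without Liver 12) to 59 and 122 to 182 lower (182 without Liver 5), and DESeq2 size factors gave 204 lower. The count of higher genes was 32 without Liver 2 or without Liver 5, 28 without Liver 11 or without Liver 13, and 30 without Liver 14. The median over all genes was -0.42. Pool, sex and animal set are the same split here.

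Snord49a, a C/D box snoRNA, ranged from 168 to 362 CPM in animals 1 to 10 and from 4964 to 24728 CPM in animals 11 to 14 (log2 difference 6.02 ± 0.49, edgeR adjusted p = 2.87e-20). Snord42b, annotated in an exon of Rpl23a, went the other way, from 229 to 2439.8 CPM against 19.6 to 45.5 CPM (-4.78 ± 0.64, adjusted p = 5.45e-09). The other organs of these pools moved like liver: Snord49a held 0.130% of spleen counts in animals 1 to 10 and 9.13% in animals 11 to 14, and in lung 0.0266% and 7.14%. The mitochondrial tRNA mt-Tg, for glycine, ranged from 235 to 2372 CPM and from 22.8 to 52.3 CPM (-5.26 ± 0.76, adjusted p = 4.53e-08), and mt-Ts2 from 4036 to 16031 CPM and from 355 to 1686 CPM (-3.39 ± 0.52, adjusted p = 3.08e-07).

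Of the 7 hepatocyte miRNAs, 2 were higher and 1 lower in animals 11 to 14, against 4.8% and 11.3% of all genes. Mir148a was lower in animals 11 to 14 (-2.53 ± 0.56, edgeR adjusted p = 0.000484), at 4.02% ± 0.713 of counts (n = 4) against 20.3% ± 12.1 (n = 9), and the sets did not overlap. Lung (0.211% against 1.17%), kidney (0.0211% against 0.244%), pancreas (23.2% against 35.6%) and spleen (0.417% against 2.17%) were lower too, and the difference in liver did not depart from theirs (-0.48 ± 0.56, adjusted p = 1). Mir122 held 6.73% ± 0.534 in animals 11 to 14 and 2.04% ± 0.760 in animals 1 to 10, without overlap, but its log2 difference of 1.56 ± 0.76 did not pass (adjusted p = 0.163). Mir22 was higher in animals 11 to 14 (1.32 ± 0.46, adjusted p = 0.0336) and so was Mir194-1 (1.33 ± 0.43, adjusted p = 0.0225), while Mir192 was at -0.11 ± 0.45.

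A difference between the sets that departed in liver from the mean of lung, kidney, pancreas and spleen was called for 4 genes (0.376%). Mir582 departed by 4.59 ± 0.73 (edgeR adjusted p = 5.09e-06); its liver medians were 1.35 CPM in animals 1 to 10 and 26.3 CPM in animals 11 to 14, and both sets held a library at 0. Scarna2 departed by -3.72 ± 0.87 (adjusted p = 0.0189), Mir877 by 4.28 ± 1.05 (adjusted p = 0.0204) and Snord82 by -2.57 ± 0.62 (adjusted p = 0.0204). The call of Mir877 was lost without any 1 of 11 of the 13 liver libraries (all but Liver 1 and Liver 4; adjusted p 0.0611 to 0.353), and those of Snord82 (adjusted p = 0.0618) and Scarna2 (adjusted p = 0.0846) with unscaled totals. Scarna2 reached at most 38.8 CPM and Mir877 at most 20.4 CPM in any liver library, and pancreas supplied only 2 libraries of animals 11 to 14 to this test.

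By rank correlation of mean levels over the 1063 genes, liver was nearest to kidney (Spearman's rho 0.926) and spleen (0.925) and farthest from brain (0.611). These values are over genes, which are not independent, and the organs differ in pool and depth. Against kidney alone, 170 genes were higher in liver and 222 lower, against heart 130 and 242, against bone marrow 222 and 335, and against brain 166 and 372.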

How the data were processed

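Small RNA libraries (TruSeq) of total RNA were size-selected and sequenced as single reads, per the labels' protocols. The authors deposited raw counts per gene. The submitters' processing notes name STAR 2.5.1, featureCounts and mm10 (GRCm38); not given in the sources used here: their settings and the handling of strand and of reads with several matches. Of 6114 genes, 2913 had no count in the libraries used, and 377 tRNA genes carry only a number. Counts were tested with edgeR 4.0.16 (R 4.3.3; TMM, filterByExpr with a minimum count of 10, quasi-likelihood F test, tissue and pool as terms), with DESeq2 1.42.0 as an alternative. A gene above or below each organ had to pass with the largest of 9 one-sided p-values. Members and gene lists were chosen with earlier results of these data known. Named genes were the hepatocyte list, genes above or below each organ, the 10 largest differences each way at a CPM of 10 or more, the 10 largest shares, up to 4 called members of each list (2 where none was called), and up to 8 genes each of the set comparison and its interaction; seed partners, genes at 0 in liver, Mir31 and Snord66 were added after their values were seen. Replicate numbers are those of 14 animals; libraries of 1 animal deviated together with a mean correlation of 0.0581 (108 pairs) against -0.00744 for other pairs (790). P-values measure the spread between these samples. On simulated counts of the liver comparison (986 genes), 93.9% of genes raised 4-fold, 83% of those lowered 4-fold and 17% of those raised 2-fold were called. Unchanged genes had a median log2 difference of -0.315 there. For the animal sets (981 genes), 34.7% of genes raised 4-fold and 31.9% of those lowered 4-fold were called. No pool effect was simulated. No 2 libraries were identical.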

Additional observations from a re-analysis of the deposited data

Results flagged for a closer look

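Liver 4, the deepest liver library, lay far above the other libraries of animals 1 to 10 in TMM-scaled CPM for 7 named miRNAs. It had 318757 CPM of Mir21a (next 61542), 50179 CPM of Mir101b (next 17947), 1295 CPM of Mir28a (next 426), 213 CPM of Mir1948 (next 84.9) and 55.7 CPM of Mir21c (next 9.60). It also had 95246 CPM of Mir486 (next 35036) and 94588 CPM of Mir3107 (next 33355), which overlap and are not separate evidence. All of these levels are divided by its TMM factor of 0.406, and the part of that factor in them was not tested. As unscaled shares, the highest Mir101b (2.23%) and Mir1948 (0.0102%) of that set were in other libraries. The highest unscaled shares of Mir21a (12.9%), Mir28a (0.0526%), Mir21c (0.00226%), Mir486 (3.87%) and Mir3107 (3.84%) were in Liver 4. Liver 9 had the highest share of snRNA, 0.129% of counts (next 0.0617%). In all, 8 of 62 groups of values had such a library. The rate of 1 in 20 by chance holds for independent groups of normally distributed values. These groups share libraries and scaling factors, so their count cannot be set against that rate.

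The difference between animals 11 to 14 and animals 1 to 10 in liver departed from that in lung, kidney, pancreas and spleen for Mir582 (log2 4.59), Scarna2 (-3.72), Mir877 (4.28) and Snord82 (-2.57), by edgeR's interaction test. Mir877 was not called without any 1 of 11 of the 13 liver libraries (edgeR adjusted p 0.0611 to 0.353), nor Scarna2 (0.0846) and Snord82 (0.0618) with unscaled totals. Scarna2 and Mir877 have low counts in liver, and Mir582 was at 0 in a library of each set; sex, pool and animal set cannot be told apart.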

How the results depend on the processing

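Calls depended on the scaling and on the pools; the cause was not tested. Against 131 genes higher, 246 lower, 12 above and 6 below each organ, DESeq2 size factors gave 81 higher, 7 above and 11 below each organ. Unscaled totals gave 81 higher and 6 above. DESeq2's Wald test gave 76, 378, 7 and 13. Pool N467 gave 158 lower, 27 above and 25 below each of 4 organs, and N541 against the 9 organs 78 lower, 2 above and 0 below in edgeR (4 at an unadjusted p under 0.05; 2 adjusted with DESeq2), with 49.5% and 62.7% of calls higher. Within N467 the 155 higher genes became 83 unscaled, and 76 higher, 87 lower and 12 above in N541, an alternative chosen after the data were seen. Leaving out each liver library gave 92 to 137 higher, 218 to 263 lower, 8 to 13 above and 5 to 8 below; the 92 and the 8 were without Liver 4, where Mir21a, Mir21c, Mir28a and Mir130a lost their place above each organ.

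With the replicate block (animal), 135 genes were higher and 247 lower, and 11 of the 12 and 5 of the 6 genes above or below each organ remained; Mir28a (0.985) and Mir181b-2 (-1.16) lost that call.

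For the animal sets, DESeq2 size factors gave 204 lower, the Wald test 31 higher and 196 lower, and libraries of at least 100000 counts 32 and 182. Leaving out a liver library gave 27 to 59 higher, 122 to 182 lower (182 without Liver 5) and 3 to 8 interactions (7 without Liver 5, 6 or 7, and 8 without Liver 11); 32 genes were higher without Liver 2 or Liver 5 and 28, 27, 28 and 30 without Liver 11, 12, 13 and 14. Interactions numbered 16 with libraries of at least 100000 counts in all organs.

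Signs turned for Mir451a (-0.41 without the pool term, -0.22 with size factors and with the Wald test, -0.99 in N467, -0.062 without intestine, and -0.019 to 0.37 when each liver library was left out, the lowest without Liver 10), for Mir27b (-0.16, -0.16 and -0.33) and Mir24-2 (-0.062, -0.058 and -0.34) with size factors, the Wald test and N467, and in N467 for Mir486 (0.74), Mir3107 (0.72) and mt-Tg (0.51). Mir199a-1 turned in N467 (0.23) and without intestine (0.15). In N541 Mir363 turned (0.36), as did the smallest differences of Mir133a-2 (5.00) and Mir218-1 (6.03). Those of Mir133a-2 and Mir218-1 are fitted values near the floor and show no higher level in liver. Liver medians there were 0 CPM for both genes, with highest values of 3.26 and 6.52 CPM. The pancreas libraries of that pool held 66250 and 13795 counts. In N541 against the 9 organs Mir451a (1.29) and Mir24-2 (1.07, edgeR adjusted p = 0.0031) were called higher. In the main fit, none of the genes whose sign turned but mt-Tg, Mir363, Mir133a-2 and Mir218-1 was called. Class shares turned for miRNA (-2.72) and mitochondrial tRNA (1.19) in N467 and snoRNA (-8.74) in N541; snRNA (-0.0159) was no longer past the threshold in N467, nor tRNA (-4.32), miscellaneous RNA (-0.0684), scaRNA (0.820) and snRNA (-0.00585) in N541, where no p under 0.125 is possible.

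Depth limits the low genes: of the 7 libraries with under 100000 counts, 1 was of liver and 5 were of pancreas. The last was the brain library of animal 11, in pool N541, with 17201 counts.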
